A study of Mus musculus with 7 samples.

Results

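Transcripts of the EGF receptor family, of its ligands and of the receptor inhibitor Errfi1 were examined in sorted mouse bone marrow cells. The set comprised 10 genes chosen by name: the receptors Egfr, Erbb2, Erbb3 and Erbb4, the ligands Areg, Ereg, Hbegf, Tgfa and Nrg1, and Errfi1. All probe sets that the platform annotation pairs with a single one of these symbols were taken, which gave 20 of 45101 probe sets, and 9 of 18193 genes with such a probe set. No probe set carried Areg as its only symbol, so Areg, the gene of amphiregulin, was not analysed here. The set was chosen on the differences between these same populations, Errfi1 being among the largest of them. The members' levels and differences are therefore given as a description, with no test.

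The study hybridised amplified RNA from 1800 to 10000 sorted cells to each of 7 Affymetrix mouse genome arrays. All cells came from the marrow of wild-type C57Bl/6J mice, young adults of 6 to 12 weeks, and were sorted by flow cytometry as negative for CD45, an antigen of leukocytes, and for lineage markers. The stromal arrays (4) hold cells positive for CD54 and BP1 and negative for CD31, labelled bone marrow stromal cells. The endothelial arrays (3) hold cells negative for CD54 and positive for CD31, labelled bone marrow endothelial cells. The labels name no treatment and do not say whether replicates are separate mice, pools or sorts, so every p below measures only the spread between these samples. Levels below are log2 values as deposited, and each difference is the stromal minus the endothelial mean on that log2 scale.

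The EGF receptor family consists of cell-surface tyrosine kinases that pair when a ligand binds and then signal through the RAS-ERK and PI3K pathways. Most ligands are made as membrane proteins and are released by metalloproteases. Errfi1, also called Mig-6 or RALT, is a cytoplasmic protein that binds the kinase domain of the active receptor and blocks it. Its own transcript is induced by receptor signalling, which makes it a feedback inhibitor. In bone and marrow, EGF receptor signalling is known to act on mesenchymal progenitors and osteoblast precursors.

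Of 6 endothelial markers, 3 were not measurable on the arrays labelled endothelial: Cdh5, Emcn and Tek lay below the 40th percentile of the array on all 7 arrays, a line used here as the floor (5.48 to 5.79). Plvap, Kdr and Stab2 lay above it on all 3 endothelial arrays, Kdr and Stab2 also on all 4 stromal arrays. Of the sorting antigens, Enpep (BP1) and Icam1 (CD54) were higher in every stromal array and Pecam1 (CD31) in every endothelial array, while Ptprc, the gene of CD45, lay at 4.91 to 7.42 on the stromal arrays and was higher on endothelial 1 to 3 (9.36, 10.94 and 8.63). The mean of 6 megakaryocyte and platelet genes was 14.18 to 14.31 on the endothelial arrays and 5.54 to 9.20 on the stromal arrays, the highest stromal value being that of stromal 4. The means of the B cell markers (4 of 5 listed were on the array; 7.50 to 9.63 against 5.88 to 7.05) and of the basophil and mast cell markers (5 of 5; 7.43 to 9.0 against 5.17 to 6.08) were also higher there, as was the mean of 5 monocyte and macrophage markers (7.44 to 8.82 against 6.15 to 7.05). Gene by gene, 3 of 4 B cell, 2 of 5 basophil and mast cell and 2 of 5 monocyte and macrophage markers split without overlap. Cd14, of the last list, had the higher mean on the stromal arrays (difference 1.18). The means of 5 neutrophil markers (9.45 to 12.38 against 7.87 to 9.93) and of the erythroid markers (4 of 5 on the array; 6.11 to 8.54 against 5.54 to 7.26) overlapped. Both B cell and basophil means were highest on endothelial 2. The mean of 6 reticular stroma genes was 13.09 to 13.28 on the stromal arrays, against 5.26 to 6.64 on the endothelial ones. The spiked-in hybridisation controls averaged 11.33 for endothelial 2, 11.37 for endothelial 3 and 9.51 to 9.75 elsewhere, so values with endothelial 1 alone as the comparison are given where they bear on a result. The part of other cell types and of this split in the members' differences was not tested. In such bulk samples, fewer cells of a type and less RNA per cell cannot be told apart.

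Errfi1 was the member that differed most between the populations. Probe set 1416129_at lay at 13.91, 13.71, 13.79 and 13.92 on stromal 1 to 4 and at 5.05, 4.67 and 4.65 on endothelial 1 to 3. The stromal values were all high and within 0.21 of each other, and all endothelial values lay below the floor. The means were 13.83 ± 0.10 (SD, n = 4) and 4.79 ± 0.22 (SD, n = 3), a difference of 9.04, the 3rd largest toward the stromal arrays of 45037 probe sets that are not controls. Because the endothelial values lie below the floor, the size of this difference is limited by the range of the arrays and no fold is given. It lay between 8.97 and 9.17 when any single array was left out, and stood at 8.79 with endothelial 1 alone.

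The other Errfi1 probe set, 1419816_s_at, gave a much smaller difference. It lay at 7.78, 7.24, 8.01 and 8.12 on stromal 1 to 4 and at 5.75, 6.45 and 6.75 on endothelial 1 to 3. The populations did not overlap, but the difference was 1.47, and it ranged from 1.18 without endothelial 1 to 2.03 with endothelial 1 alone. The suffix of 1419816_s_at marks a probe set that can match more than 1 transcript. With the mean of both probe sets the gene's difference was 5.26.

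The deposited data hold no promoter measurement, and the sequences upstream of Errfi1 and Egfr are shown because these were the members highest on the stromal arrays. They are the 250 bases before an annotated transcript start in RefSeq, build GRCm38.p6. Sequences of 6 of the 10 members were searched, Errfi1 at more than 1 start. Ereg, Erbb3 and Nrg1 had no sequence in the promoter set used, and Hbegf was left out of the search. The Errfi1 sequence is at chr4:150854820-150855069 and the Egfr sequence at chr11:16751953-16752202, both on the plus strand. Capitals mark matches to any of 6 motifs searched on both strands: the cyclic AMP response element TGACGTCA, the AP-1 site TGANTCA, the TATA element TATAAA, the GC box GGGCGG, the CCAAT box CCAAT and the E-box CACGTG.
Errfi1: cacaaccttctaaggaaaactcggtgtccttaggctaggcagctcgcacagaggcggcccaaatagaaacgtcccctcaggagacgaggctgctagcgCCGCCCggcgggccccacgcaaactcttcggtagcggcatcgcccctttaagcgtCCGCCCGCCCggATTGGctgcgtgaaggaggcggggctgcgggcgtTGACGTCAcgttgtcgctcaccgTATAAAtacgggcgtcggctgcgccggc
Egfr: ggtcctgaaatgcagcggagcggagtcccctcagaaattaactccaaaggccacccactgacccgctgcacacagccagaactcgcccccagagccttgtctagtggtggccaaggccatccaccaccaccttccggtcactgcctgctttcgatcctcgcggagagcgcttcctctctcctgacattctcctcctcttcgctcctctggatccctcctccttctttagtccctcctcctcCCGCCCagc
The Errfi1 sequence held TGACGTCA at 51 bases before the start, TATAAA at 28 bases, 3 GC boxes (of which 2 overlap) and 1 CCAAT box, the GC and CCAAT boxes on the minus strand. TGACGTCA was found in 1.55% of 32851 promoter windows of this length and TATAAA in 12.4%. The Egfr sequence held a single GC box, at 9 bases before the start, a motif found in 32.7% of windows, and none of the other 5 motifs. The other Errfi1 start in the table, upstream of this one, held none of the 6. These matches describe letters only.

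Egfr, the receptor of EGF, TGF-alpha, amphiregulin and HB-EGF, was represented by 7 probe sets that went different ways. Probe set 1435888_at lay at 10.63, 10.04, 10.43 and 10.56 on stromal 1 to 4 and at 5.33, 5.31 and 5.25 on endothelial 1 to 3. Its endothelial values were all below the floor, and its difference was 5.12 (10.41 ± 0.26, SD, n = 4, against 5.30 ± 0.05, SD, n = 3). Probe set 1424932_at showed the same split, with 10.03, 9.08, 9.03 and 9.44 on the stromal arrays and 5.07, 5.07 and 4.81 on the endothelial arrays. Its difference was 4.42 (9.40 ± 0.46 against 4.98 ± 0.15). With endothelial 1 alone these differences were 5.08 and 4.33, and leaving out any single array kept them within 5.05 to 5.24 and 4.20 to 4.54.

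The remaining 5 Egfr probe sets did not show that split. Probe set 1460420_a_at, which has the highest mean of the 7 and would stand for the gene under that rule, lay at 8.22, 8.39, 8.24 and 8.47 on the stromal arrays, against 8.09, 7.92 and 8.52 on the endothelial ones. The populations overlapped and the difference was 0.15. Populations also overlapped for 1432647_at (difference -0.24) and 1451530_at (-0.35). Probe set 1451530_at was designed against the same sequence record as 1424932_at, per the platform annotation and did not show its split. Probe set 1454313_at went the other way, with 5.96, 6.30, 5.87 and 6.04 on the stromal arrays, against 7.95, 6.99 and 7.16 on the endothelial ones, a difference of -1.33 (-1.03 without endothelial 1, and -1.91 with endothelial 1 alone). It shares its design sequence with 1432647_at. Probe set 1457563_at lay below the floor on all 7 arrays. The mean of all 7 probe sets gave the gene a difference of 1.0, so the value for Egfr rests on which probe set is read.

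Erbb2, the family member without a known soluble ligand and the favoured pairing partner of the others, had 1 probe set. It lay at 7.52, 7.77, 7.34 and 7.38 on stromal 1 to 4 and at 6.6, 6.6 and 6.89 on endothelial 1 to 3. Every value was above the floor, the stromal arrays lay above the endothelial arrays, and the difference was 0.81 (7.50 ± 0.19 against 6.70 ± 0.17). It stood at 0.52 after a repeated quantile normalization and 0.55 after cyclic loess.

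Erbb3, a neuregulin receptor with a weak kinase, and Erbb4, the other neuregulin receptor, were dim. For Erbb3, 1452482_at lay at 5.16, 5.64, 5.55 and 5.68 on the stromal arrays, against 6.93, 6.46 and 6.39 on the endothelial ones, a difference of -1.09 that stood at -0.70 after cyclic loess. The populations overlapped in its other probe set, 1434606_at (-0.40). The Erbb4 probe set lay at 3.20 to 3.25 on the stromal arrays, against 3.16, 3.93 and 3.25 on the endothelial ones, below the floor on all 7, so no difference is read from it.

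Tgfa, which encodes the EGF receptor ligand TGF-alpha, was brighter on the endothelial arrays in 2 of 3 probe sets. Probe set 1450421_at lay at 6.30, 6.78, 6.87 and 6.63 on stromal 1 to 4 and at 7.53, 7.65 and 8.15 on endothelial 1 to 3, and 1421942_s_at at 6.88, 6.80, 7.09 and 7.17 against 8.11, 7.81 and 7.72. Neither pair of groups overlapped, and the differences were -1.13 and -0.89. They were -1.53 and -1.38 after a repeated quantile normalization, -1.38 and -1.27 after cyclic loess, and -0.89 and -1.13 with endothelial 1 alone. The third, 1421943_at, pointed the other way (0.49), with all endothelial values below the floor at 5.49, 5.17 and 5.17 and stromal values of 6.07, 5.78, 5.74 and 5.50.

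Hbegf encodes heparin-binding EGF-like growth factor, a ligand of EGFR and ERBB4. Its probe set 1418349_at lay at 6.64, 7.02, 6.79 and 6.93 on the stromal arrays, against 7.56, 7.30 and 7.68 on the endothelial ones. The endothelial arrays were all higher, with a difference of -0.67, or -1.09 after a repeated quantile normalization. The populations overlapped in 1418350_at, whose difference was 0.04. Ereg, the gene of epiregulin, lay at 3.26 to 3.59 on the stromal arrays, against 4.08 to 4.61 on the endothelial ones, and Nrg1, the gene of neuregulin-1, at 3.77 to 3.94 and 3.86 to 4.48. Both were below the floor on all 7 arrays. No difference is read from them: the differences were -0.83 and -0.38 as deposited, where the median difference of all 15598 probe sets below the filter was -0.50. For Ereg the difference was -0.51 after a repeated quantile normalization and -0.42 after cyclic loess, where that median was -0.20 and -0.04.

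**Figure D1:**
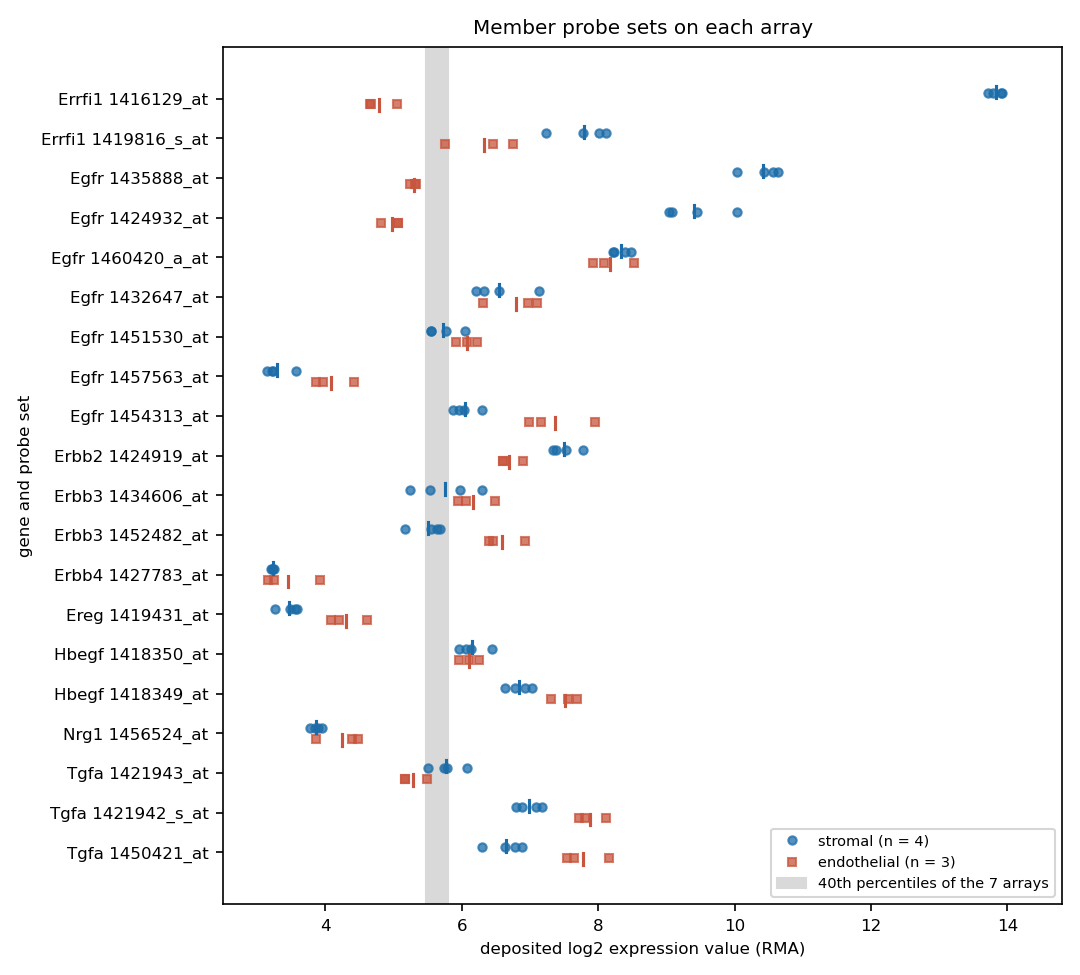
Deposited log2 values (x axis) of the 20 member probe sets (y axis) on each array, with circles for the 4 stromal arrays, squares for the 3 endothelial arrays, short bars for group means and a grey band for the 40th percentiles of the arrays (5.48 to 5.79). Errfi1 1416129_at and Egfr 1435888_at and 1424932_at stand far to the right on the stromal arrays only, while Erbb4, Ereg and Nrg1 lie left of the band on all arrays.

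Counted over the set, 16 of the 20 probe sets passed the filter on dim values, which asks for at least 3 arrays above the floor. Among the 16, the populations did not overlap in 6 probe sets with the stromal arrays above, beside 30.3% of all 29439 probe sets that passed, and in 5 with the endothelial arrays above, beside 31.4%. Since this contrast guided the choice of members, and some passed only through the population where they were high, nothing is read from these counts. The median difference over all 20 was -0.30.

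**Figure D2:**
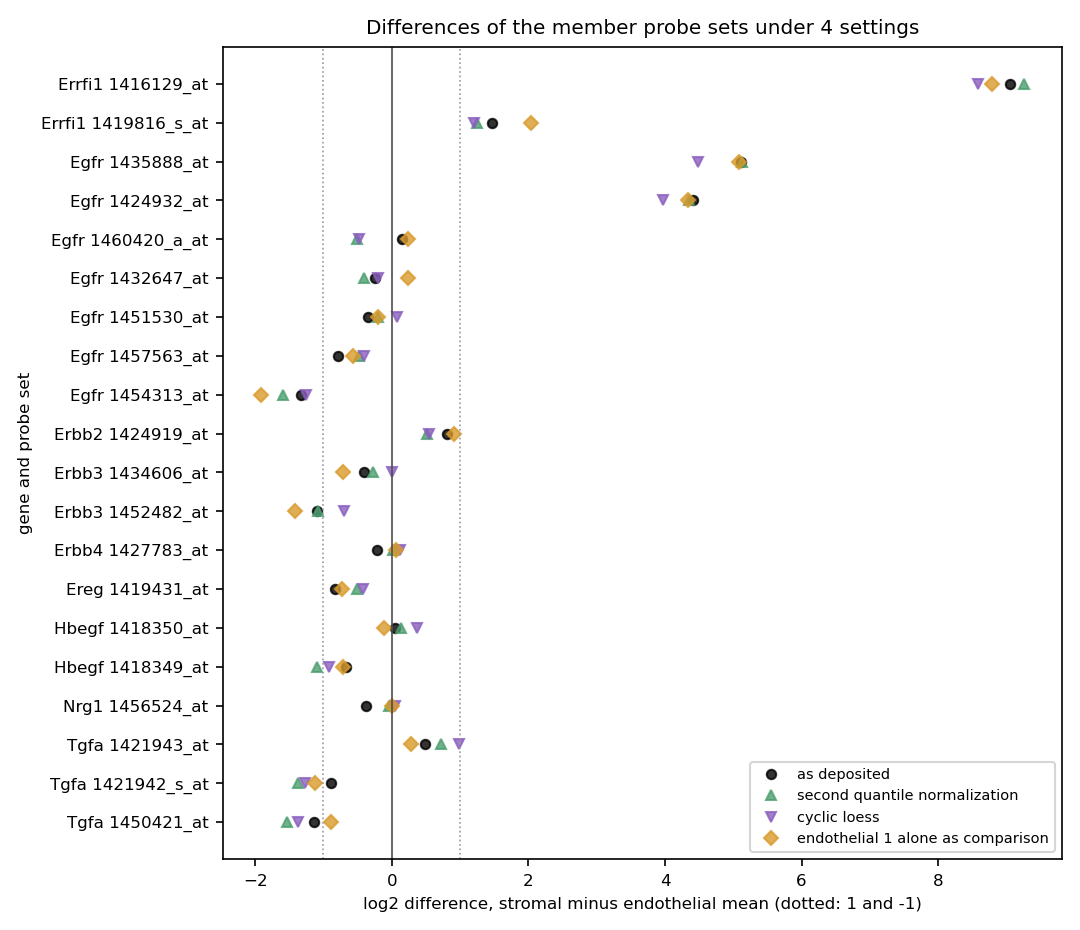
Log2 differences, stromal minus endothelial mean (x axis, dotted lines at 1 and -1), of the 20 member probe sets (y axis) as deposited, after a repeated quantile normalization, after cyclic loess and with endothelial 1 alone as the comparison. The differences of Errfi1 1416129_at stay between 8.58 and 9.25 and those of Egfr 1435888_at between 4.48 and 5.13, while Egfr 1460420_a_at moves from 0.15 to -0.51 and changes sign.

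Genes with a pattern like Errfi1 were sought by the root mean square deviation between values centred on each gene's own mean, over all 7 arrays and the 13995 genes tested. The nearest to 1416129_at were Adipoq, the gene of the adipokine adiponectin (0.18), Ms4a4d, a gene of the MS4A membrane protein family (0.18), and Cyp1b1, a cytochrome P450 gene (0.30). For this probe set the measure rests mainly on the size of the difference, and all its endothelial values lay below the floor. For Erbb3 1452482_at the nearest were Hsd17b6, Gcgr and Meltf (0.07 to 0.08). Within a deviation of 0.5 lay 4108 genes for Erbb3 and 12 for Errfi1, so the Erbb3 names are a few of many. The same measure was applied to the stromal Egfr probe sets, a choice made after their values were seen. Nearest to 1435888_at were Svep1, Eya4 and H2-Q10 (0.20 to 0.21), and nearest to 1424932_at were Slit3, Fzd1 and Peg3 (0.21 to 0.23), again with endothelial values of both Egfr probe sets below the floor. The measure uses the same contrast that guided the choice of members, so these names are a description.

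The other genes of the pathway came from 8 lists grouped by role, 80 genes in all, of which 75 had a probe set with a single symbol and 71 passed the filter. The probe set of highest mean stood for each gene. A call required an adjusted p under 0.05 (limma, Benjamini-Hochberg over all genes tested) and a log2 difference of at least 1. Of the 71 tested, 31 (43.7%) were called toward the stromal side, beside 30.9% of all genes tested, and 15 (21.1%) toward the endothelial side, beside 16.1%, over the 13995 genes. Their median difference was 0.83, against 0.19 over all genes tested. The excess on the stromal side changed with the scaling: 17 (23.9%) were called on that side after either a repeated quantile normalization or cyclic loess, where 23.2% and 23.4% of all genes were, and 17 (23.9%) and 18 (25.4%) on the endothelial side, where 21.4% and 17.1% of all genes were. The median of all genes itself moved from 0.19 to -0.12 and -0.03 under these scalings, and the stromal share of all calls from 65.7% to 52.0% and 57.8%.

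**Figure D3:**
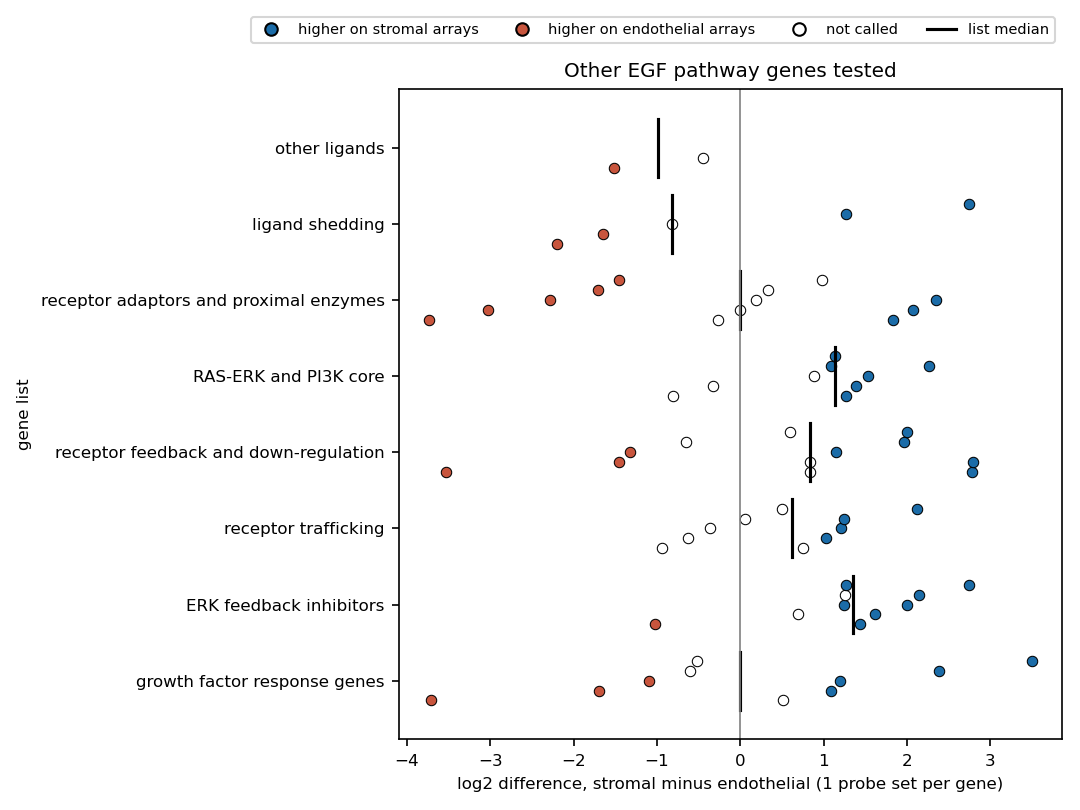
Log2 differences, stromal minus endothelial (x axis), of the 71 other pathway genes tested, by list (y axis); filled circles passed the call rule in either direction, open circles did not, and vertical bars are list medians. Genes of ligand shedding, of receptor adaptors and of receptor down-regulation lie on both sides of 0, while the ERK feedback inhibitors lie to the right but for Dusp5.

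Genes that restrain the receptor were split. In the list of receptor feedback and down-regulation 5 of 12 (41.7%) were called toward stroma, beside 30.9% of all genes tested. Another 3 (25%) were called the other way, beside 16.1%. The counts were also 5 and 3 under both other scalings. Over all genes the shares under those scalings were 23.2% and 23.4% toward stroma, and 21.4% and 17.1% the other way. The median difference of the list as deposited was 0.83. The stromal side held Lrig1, Lrig2 and Lrig3, which encode leucine-rich membrane proteins of which LRIG1 lowers EGF receptor levels. Lrig1 lay at 9.24 ± 0.37 (n = 4) against 6.45 ± 0.27 (n = 3), a difference of 2.79 with a limma adjusted p of 3.61e-05, while its probe sets ranged from -0.34 to 2.96. Lrig2 was higher by 2.00 (limma adjusted p = 7.09e-04) and Lrig3 by 1.15, its probe sets ranging from -0.17 to 4.18. Socs5, whose product promotes receptor degradation, was higher by 2.78 (limma adjusted p = 6.44e-05). The ubiquitin ligase genes Cblb and Cbl, which act on the receptor, were called in opposite directions. Cblb stood at 1.96, with up to 5.14 in its other probe sets, and Cbl at -1.32 (limma adjusted p = 0.00455). Among the phosphatase genes, Ptprj was lower on the stromal arrays, at 7.61 ± 0.24 against 11.13 ± 0.51 (difference -3.52, limma adjusted p = 1.50e-05), and Ptpn1 likewise (-1.46). Cblc (-0.66) and Ptpn2 (0.83) were not called, but Ptpn2 was called in 4 alternatives, among them without endothelial 2 (1.13). It stood at 0.51 after cyclic loess.

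Inhibitors further down the pathway lay mostly on the stromal side. Of 10 ERK feedback inhibitors 7 (70%) were called toward stroma and 1 (10%) the other way, beside 30.9% and 16.1% of all genes tested. Under either other scaling the counts were 4 and 1. There 23.2% or 23.4% of all genes were called toward stroma and 21.4% or 17.1% the other way. The median difference of the list was 1.35. Spry1, a Sprouty inhibitor of RAS-ERK signalling, lay at 12.59 ± 0.33 against 9.84 ± 0.08 (difference 2.74, limma adjusted p = 1.80e-05). Dusp6 and Dusp1, which encode phosphatases of MAP kinases, were higher by 2.15 and 2.00 (limma adjusted p = 0.0156 and 7.60e-04). Dusp6 lay at 6.11, 8.89 and 8.60 on endothelial 1 to 3, and its difference was 1.27 without endothelial 1 and 3.90 with endothelial 1 alone. Dusp5 lay on the endothelial side (-1.02) and missed the rule in 7 alternatives, among them leaving out stromal 1 (-0.93), stromal 4 (-0.94) or endothelial 2 (-0.83). Spry2 (1.25) and Spred2 (0.69) were not called. Spry2 stood at 2.13, past the rule, without endothelial 2 and at 0.77 without endothelial 1, and Spred2 at -0.02 and 1.15.

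Of 5 genes of ligand shedding, 2 (40%) were called toward stroma and 2 (40%) the other way, beside 30.9% and 16.1% of all genes tested. The median difference was -0.82. Rhbdf1 and Rhbdf2 encode inactive rhomboid proteins that carry the sheddase ADAM17 to the cell surface. Rhbdf1 lay at 11.23 ± 0.42 on the stromal arrays, against 8.49 ± 1.09 on the endothelial ones (difference 2.74, limma adjusted p = 0.00159). Rhbdf2 lay the other way, at 6.84 ± 0.26 against 9.04 ± 0.17 (-2.19, limma adjusted p = 4.17e-05). The sheddase gene Adam17 was higher on the stromal arrays by 1.27 (limma adjusted p = 0.00253), and Adam10 on the endothelial arrays (-1.65, limma adjusted p = 1.48e-04). Adam17 fell short of a difference of 1 under both other scalings (0.85 and 0.81) and with the mean of its probe sets (0.85), as did Adam10 with that mean (-0.72). Timp3, the gene of a sheddase inhibitor, was not called (-0.82). It was called at -1.55 without endothelial 2, and stood at -0.48 without endothelial 1 and -0.44 without endothelial 3. Among the other ligands only Nrg2 and Nrg4 passed the filter. Nrg4 was higher on the endothelial arrays, at 7.05 ± 0.49 against 5.54 ± 0.28 (-1.51, limma adjusted p = 0.00177), and Nrg2 was not called (-0.45). Nrg2 stood at -0.97 after a repeated quantile normalization and -0.92 after cyclic loess. It stood at -0.26 without endothelial 3 and at -0.0025 with endothelial 1 alone. Egf, Btc, Epgn and Nrg3 did not pass the filter and were not tested. Of these, Epgn lay at 5.55, 5.89 and 6.14 on endothelial 1 to 3, above the floor on endothelial 2 and 3. On the stromal arrays it lay at 4.25 to 4.87, all below the floor (difference -1.27). The median difference of all probe sets below the filter was -0.50.

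Adaptors next to the receptor also lay on both sides. Of 13 tested, 3 (23.1%) were called toward stroma and 5 (38.5%) the other way, beside 30.9% and 16.1% of all genes tested. The median difference was -0.00128. The endothelial side held Vav3, the gene of a guanine nucleotide exchange factor, at 8.97 ± 0.21 against 5.24 ± 0.52 (-3.73), Ptpn11, the gene of the phosphatase SHP2 (-3.02), and Gab2, the gene of a docking protein (-2.28), with limma adjusted p-values of 1.76e-05, 3.13e-05 and 3.34e-05. The stromal mean of Vav3 lay below the floor, which limits its difference. On the stromal side were Plcg1, the gene of phospholipase C-gamma-1 (2.34), the adaptor gene Eps8 (2.07, its endothelial mean below the floor) and Sos1, the gene of a RAS exchange factor (1.83). These were less firm: Plcg1 stood at 0.21 with the mean of its probe sets, Eps8 at -0.45 in a probe set without the cross-matching suffix, and Sos1 had a limma adjusted p of 0.0506 and 0.0515 under the other scalings. Shc1 (0.97) and Shc2 (-0.27) were not called, but Shc1 was called without stromal 1, stromal 2 or endothelial 2. Against this, Shc1 stood at 0.33 after either other scaling and at 0.44 with the mean of its probe sets. Shc2 stood at -0.10 without endothelial 1 and -0.48 without endothelial 3. In the RAS-ERK and PI3K core 6 of 9 tested (66.7%) were called toward stroma and 0 the other way, beside 30.9% and 16.1% of all genes. The stromal side was led by Pik3r1, the gene of a PI3K regulatory subunit (2.26, limma adjusted p = 2.81e-05), Map2k1, the gene of the ERK kinase MEK1 (1.53), and the kinase gene Akt1 (1.39). The median difference was 1.14. Only 1 gene of that list was called on the stromal side under either other scaling, where 23.2% and 23.4% of all genes were. Map2k1 (0.94 and 0.87) and Akt1 (0.91 and 0.89) fell short of 1 under those scalings. Akt1 stood at 0.08 with the mean of its probe sets. Nras (-0.81) and Araf (0.89) were not called, Nras being called in 6 alternatives, among them cyclic loess (-1.12) and leaving out endothelial 3 (-1.02), against -0.47 without endothelial 1. Araf was called without endothelial 3 (1.55) and with the mean of its probe sets (1.1), against 0.51 without endothelial 1. It stood at 0.39 after a repeated quantile normalization and 0.28 after cyclic loess. Of 10 trafficking genes 4 (40%) were called toward stroma and 0 the other way, beside 30.9% and 16.1% of all genes. The stromal side was led by the adaptor gene Cd2ap (2.12), the sorting nexin gene Snx1 (1.25) and Stam2 (1.20). The median difference of the list was 0.62. The count was 1 under either other scaling, with 2 and 3 on the endothelial side. Of all genes, 23.2% and 23.4% were called toward stroma there, and 21.4% and 17.1% the other way. Snx1 and Stam2 were not called under either of these scalings. Stam2 also lost its call without stromal 2 (1.12), endothelial 1 (1.18) or endothelial 3 (0.77). Stam (0.75) and Epn1 (-0.63) were not called, but Epn1 was called after a repeated quantile normalization (-1.19) and cyclic loess (-1.18). Stam stood at 1.15 with endothelial 1 alone, but at 0.12 after either other scaling and 0.38 with the mean of its probe sets.

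Genes that growth factors induce went both ways, with 4 of 10 (40%) called toward stroma and 3 (30%) the other way. Over all genes tested these shares were 30.9% and 16.1%. The median difference of the list was -0.0040. Etv5, a transcription factor gene that follows ERK activity, lay at 8.39 ± 0.42 against 4.89 ± 0.50, the latter below the floor (difference 3.50, limma adjusted p = 3.42e-05), but stood at 0.76 with the mean of its probe sets. The immediate-early gene Egr1 lay at 13.73 ± 0.25 against 11.35 ± 0.20 (2.38, limma adjusted p = 2.78e-05) and Fos at 13.87 ± 0.27 against 12.68 ± 0.42 (1.19, and 0.98 without endothelial 3). Ccnd1, the gene of cyclin D1, was higher on the endothelial arrays, at 10.10 ± 0.85 against 6.38 ± 0.68 (-3.72, limma adjusted p = 2.93e-04), as were Phlda1 (-1.69) and the AP-1 gene Fosl1 (-1.09, -0.87 without endothelial 1 and -0.64 after cyclic loess, its stromal mean below the floor). Etv4 (-0.52) and Ier3 (-0.60, and -0.31 without stromal 4) were not called.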

How the data were processed

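Per the submitters' processing notes, the deposited log2 values were made with Affymetrix Expression Console 1.1 and RMA (background correction, quantile normalization and summary over the probes of a probe set). Which arrays were normalized together is not given in the sources used here. Symbols came from a platform annotation: of 45101 probe sets 34945 had 1 symbol, 932 several, 9160 none, and 64 were controls. The number of arrays limits the precision. Differences were fitted with limma 3.58.1 in R 4.3.3, as a linear model of population with moderated variances, over 13995 genes, each by its probe set of highest mean; 4198 genes were set aside by the filter. Filter and chosen probe set were kept in every alternative that did not change them. The procedure was tested on simulated data with independent noise and differences added to a small part of the probe sets. Those data held no shift between arrays, so they cannot show how the calls depend on scaling. The members, the gene lists, the rules and the alternatives were chosen with earlier results of these data known. Named pathway genes were, per list, up to 3 called in each direction with the largest difference and up to 2 not called with the smallest adjusted p; Lrig3, Cblb and genes below the filter were named in addition, after their values were seen. Alternatives were the filter, a repeated quantile normalization, cyclic loess, a robust trended variance prior, weights per array, a replicate block, a hybridisation-control block, the choice of probe set, and leaving out arrays. The hybridisation-control block sets endothelial 2 and 3 apart, so its difference is that with endothelial 1 alone. Calls under that block thus rest on 1 endothelial array.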

Additional observations from a re-analysis of the deposited data

Results flagged for a closer look

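Among the 67 probe sets of members and named pathway genes, 5 had a stromal array that stood apart from the other 3 by Dixon's criterion, its gap to the nearest value as a share of the range. Chance flags about 1 in 20 such groups. No member probe set was among them. The ratios were 0.858 for Nrg4 (5.12 on stromal 1 against 5.62 to 5.71), 0.869 for Vav3 (4.47 on stromal 3 against 5.44 to 5.59), 0.881 for Nras (10.9 on stromal 4 against 10.3 to 10.4), 0.838 for Ptprj (7.97 on stromal 1 against 7.45 to 7.53) and 0.856 for Epn1 (7.33 on stromal 1 against 7.58 to 7.62).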

How the results depend on the processing

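Of 240 values of the 20 member probe sets under 12 alternatives, 207 moved by less than the spread between replicates and 33 by more, and no difference of at least 1 changed its sign. The 12 are not all distinct. The replicate block repeats the differences found without stromal 4, which has no endothelial array of its number. The count of other pathway genes higher on the stromal arrays was 31, and 17 after a repeated quantile normalization and 17 after cyclic loess. Leaving out each array in turn it lay between 27 and 34, and the endothelial count of 15 between 14 and 17. The other counts stayed within 1.5 times their value under every alternative run. Among 47 named pathway genes, 33 of 749 values no longer passed the call rule, 23 newly passed it and 5 changed sign. The sign changes were Eps8 (-0.45 without the _x_at and _s_at probe sets) and Spred2, which was not called (-0.24 with the hybridisation-control block, between -0.016, without endothelial 2, and 1.15, without endothelial 1, when each array was left out, -0.0045 without stromal 4 and endothelial 2, and -0.13 with the mean of probe sets); the cause was not tested. Both have probe sets that disagree. Same-numbered arrays did not deviate together (r = -0.10, 0.00 and 0.11 for replicates 1 to 3 over the probe sets tested). Arrays of unlike number gave r from -0.13 to 0.15. These values cannot decide whether the numbers pair the samples, which the labels do not say. With replicate number as a block the pathway counts were 28 and 14, the same as without stromal 4. Members near the floor, Erbb4, Ereg and Nrg1, cannot be compared at this signal, and the size of the Errfi1 and Egfr differences is bounded by it.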

Other observations

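Several member probe sets held exactly the same value on a pair of arrays. The Egfr probe set 1424932_at was listed at 5.06748 on endothelial 1 and endothelial 2, Erbb2 at 6.59767 on the same arrays, Tgfa 1421943_at at 5.17226 on endothelial 2 and 3, Egfr 1451530_at at 5.54031 on stromal 1 and 2, and Erbb4 at 3.25116 on stromal 4 and endothelial 3. Such a tie occurred in 5 of 20 member probe sets, in 4 of 75 chosen probe sets of the other pathway genes (5.33%) and in 4530 of 45037 probe sets overall (10.1%). The SD of a tied group of 3 rests on fewer distinct values than its n, which applies to the endothelial SDs of Egfr 1424932_at, Erbb2 and Tgfa 1421943_at.

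The sequence upstream of Areg, whose level was not analysed here, held TGACGTCA at 61 bases and TATAAA at 31 bases before its start, in an order like that upstream of Errfi1. The windows of Erbb2, Erbb4, Egfr and Tgfa held neither, and Ereg, Erbb3, Nrg1 and Hbegf were not searched.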
